A study of Homo sapiens with 7 samples.

Results

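The array described here set HCT116 cells with a UHRF1 short hairpin RNA (shRNA) beside HCT116 cells carrying a non-silencing control, and it was 1 of 7 arrays in the study. It was chosen by its label alone, as the single array of this line and the single array with UHRF1 as the target. HCT116 is an established human colorectal carcinoma line. The sample title holds d14, whose meaning is not stated, and 60% is the knockdown efficiency in its label. The other 6 arrays served as background. They hold DLD1, HT29 and RKO cells, further established colorectal cancer lines, each with shRNA 49 or shRNA 51 against DNMT1 (called hairpin 49 and hairpin 51 below) and each against a non-silencing control of its own line. On the UHRF1 array and the 3 hairpin 51 arrays the knockdown RNA was labelled with Cy5 and the control RNA with Cy3, and on the 3 hairpin 49 arrays the dyes were the other way round. The labels name 1 hairpin against UHRF1, with no dye swap, and do not say how the knockdown cells were selected.

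UHRF1 is the nuclear protein that keeps DNA methylation in place through cell division. It binds CpG sites methylated on the old strand only, as they stand after DNA is copied, reads the histone tail beside them, and ubiquitinates that tail, which brings in DNMT1 to methylate the new strand. In colorectal cancer cells such methylation lies over germline genes, over many promoters that are open in normal colon, and over endogenous retroviruses, whose transcripts can set off an interferon response.

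Every value below is a log2 ratio, knockdown RNA over control RNA, so that 1 is 2-fold higher and -1 is 2-fold lower in the knockdown, and a gene's value is the mean over its probes. A ratio carries no level, so the line could not be checked against its marker genes, and fewer cells of a kind cannot be told apart from less RNA per cell. The direction is likely rather than settled: it rests on the dyes, which match those of the hairpin 51 arrays on which DNMT1 lies below 0 (from -2.35 to -0.92), and on the mean of the UHRF1 probes. A turned sign would swap higher and lower throughout. No second UHRF1 array is among the 7, so no value here has a replicate check and none was tested. Probes of 1 gene differed with a pooled SD of 0.461, which covers probes and not cultures.

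UHRF1 itself stood at -1.16, the mean of 4 probes, or 44.6% of control. Its probes lay at -3.10, -2.06, -0.18 and 0.68, and the last of these is a ratio that other probes of the array hold to the last digit. Without that probe the remaining 3 averaged -1.78, or 29.2% of control. The lowest probe alone gave 11.7% of control. The probes therefore span a range from strong loss to a higher value, which is too wide to check the labelled loss of 60%. On the DNMT1 arrays UHRF1 stood at 0.83, -0.28 and -0.37 under hairpin 49 and at 0.82, 0.39 and 0.25 under hairpin 51, in DLD1, HT29 and RKO, none of them 2-fold lower.

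The measured genes of proteins that work with UHRF1 lay within 2-fold on this array, most of them close to 0. DNMT1, the maintenance methyltransferase that UHRF1 recruits, stood at 0.09. UHRF2, the close relative of UHRF1, stood at -0.26, and USP7, the deubiquitinase that binds both UHRF1 and DNMT1, at -0.60. DNMT3A (0.16) and DNMT3B (0.08), the enzymes that place new methyl marks, also lay within 2-fold. Of 15 UHRF proteins and partners measured, UHRF1 was the single one 2-fold lower and 0 were 2-fold higher. Among 14 other methylation enzymes and readers, MBD3, a subunit of the NuRD repressor complex, was the single one past 2-fold, at 1.06. TET1 (0.13) and TET2 (-0.02), which oxidise methylated cytosine, lay near 0.

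Of 18175 genes with a ratio, 839 were at least 2-fold higher (4.62%) and 422 at least 2-fold lower (2.32%), and 471 named genes had no ratio. The median gene lay at 0.03, with quartiles of -0.20 and 0.28. The high side reached further than the low side: 64 genes were at least 8-fold higher and 1 was at least 8-fold lower. Many of these calls rest on ratios that unrelated probes share exactly, as 44.0% of this array's ratios do. With such ratios left out, 388 genes were 2-fold higher and 196 lower. Among 6171 genes with shared ratios alone, 7.84% were higher and 4.13% lower, against 3.17% and 1.51% of 9494 genes with none. The 15 highest and 15 lowest genes below come from the latter, so that each has ratios of its own. Of 7251 genes with at least 2 probes, 57 were higher and 24 lower with each probe past 2-fold.

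The highest genes included genes of germ cells, muscle, matrix and neurons. GALNT15, a glycosyltransferase that starts O-linked sugar chains, stood highest at 6.69 (103-fold). The cadherin CDH26 followed at 5.32 and the cancer-testis antigen CTAG1A (NY-ESO-1) at 5.11. COX7B2, the testis form of a cytochrome c oxidase subunit, stood at 5.01, the matrix glycoprotein SPARC at 4.93, the lens protein LGSN at 4.82 and the neuronal deubiquitinase UCHL1 at 4.70. IL18, an inflammasome cytokine, stood at 4.47. The muscle genes CKM (creatine kinase) and TNNI2 (fast troponin I) stood at 4.21 and 4.0, and KRTAP3-1, a protein of hair, at 3.91. The cancer-testis genes GAGE7 (4.20), VCX3A (4.06), VCX (3.96) and SSX4B (3.96) complete the 15 highest. The SSX4B probes lay apart, at 2.01 and 5.90, both past 2-fold.

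Other high genes had at least 2 probes, each past 2-fold. The probes of AFAP1-AS1, a long noncoding RNA, lay at 3.53 and 3.69. Those of DYSF, the membrane repair protein of muscle, lay at 3.10 and 3.59, and those of VIM, the intermediate filament of mesenchymal cells, at 3.00 and 2.88. IFI27, an interferon-stimulated gene, had probes at 3.30 and 3.11. In each of these 4 genes the probes differed by less than 0.5 and the gene stood far outside 2-fold. SOHLH1, a germ cell transcription factor, averaged 2.87, the fatty acid receptor CD36 2.72, the transcription factor CREB5 2.55, the glutaminyl cyclase QPCT 2.53, the X-linked homeobox gene RHOXF2 2.29 and the testis protease PRSS21 2.23. The guanylate cyclase subunit GUCY1A2 averaged 2.48, but its probes lay at 1.03 and 3.93 and both are shared ratios.

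**Figure D1:**
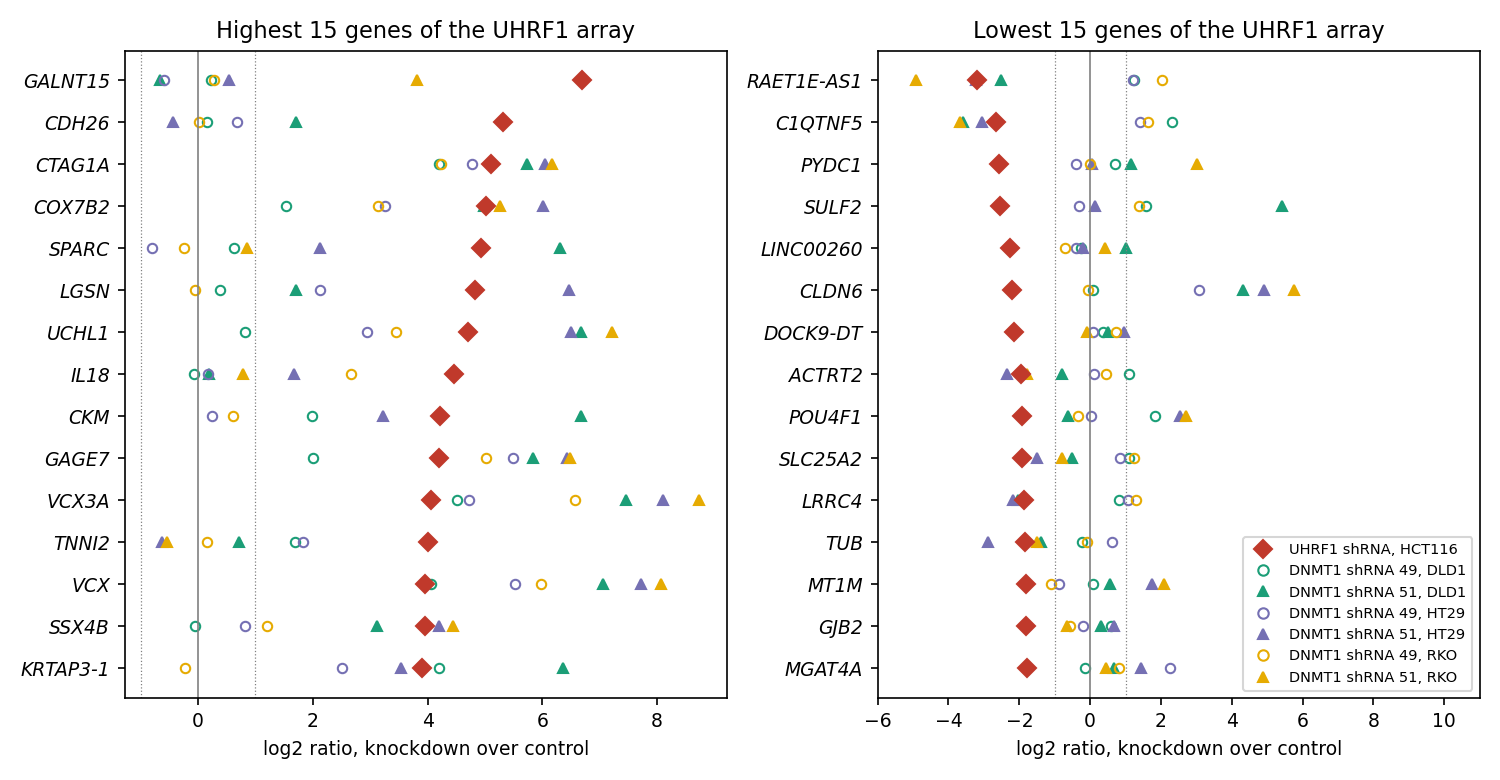
Log2 ratio of knockdown over control (x axis) for the 15 highest and 15 lowest genes of the UHRF1 array among genes with no shared ratio. Red diamonds are the UHRF1 array, open circles and filled triangles the DNMT1 arrays under hairpin 49 and shRNA 51, coloured by line, and dotted lines mark 2-fold; the highest genes run from 3.91 to 6.69 and the lowest from -1.79 to -3.20, and a diamond can hide a point beneath it.

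Cancer-testis antigens are proteins of male germ cells whose genes, most of them on chromosome X, are silenced by promoter methylation elsewhere. Of 69 listed genes 53 had a ratio, 23 of them (43.4%) were at least 2-fold higher and 0 were lower, beside 4.62% and 2.32% of all genes. Their median was 0.66, with quartiles of 0.15 and 2.21, so the family was split: some members stood far above control and others near 0. Over the 37 members with a ratio of their own, 21 were 2-fold higher and the median was 1.66. Beyond the genes named above, PAGE1 stood at 3.76, MAGEA11 at 3.64, MAGEB6 at 3.44, MAGEC2 at 3.35, MAGEC1 at 2.92 and PASD1 at 2.49. The MAGEA genes did not go together, since MAGEA10 (1.66) was 2-fold higher while MAGEA4 (0.55), MAGEA6 (-0.25) and MAGEA12 (-0.48) were not. Members of these families are near-identical, so a probe can read more than 1 copy.

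The promoters of 3 of the highest genes are shown because their CpG content spans a wide range. They are RefSeq windows of GRCh38.p14, running from 250 bases before to 50 after the start, 5′ to 3′ on the gene's strand, with every CG in capitals. VCX3A (chrX:6535069-6535368, minus strand) holds 1, COX7B2 (chr4:46909196-46909495, minus strand) holds 8 and UCHL1 (chr4:41256678-41256977, plus strand) holds 25, beside a median of 14 over all 35116 windows, 96.0% of which hold at least 1.
VCX3A: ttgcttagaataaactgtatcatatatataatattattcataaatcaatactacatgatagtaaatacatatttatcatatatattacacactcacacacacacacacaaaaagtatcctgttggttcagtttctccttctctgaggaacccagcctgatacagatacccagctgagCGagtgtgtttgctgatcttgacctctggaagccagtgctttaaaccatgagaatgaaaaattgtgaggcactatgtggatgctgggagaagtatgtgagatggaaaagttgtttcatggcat
COX7B2: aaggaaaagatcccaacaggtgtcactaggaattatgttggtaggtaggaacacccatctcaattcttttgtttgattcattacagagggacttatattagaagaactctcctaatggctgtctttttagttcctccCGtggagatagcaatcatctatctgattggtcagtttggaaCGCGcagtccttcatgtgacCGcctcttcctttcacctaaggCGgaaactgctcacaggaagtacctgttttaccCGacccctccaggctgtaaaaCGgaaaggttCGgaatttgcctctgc
UCHL1: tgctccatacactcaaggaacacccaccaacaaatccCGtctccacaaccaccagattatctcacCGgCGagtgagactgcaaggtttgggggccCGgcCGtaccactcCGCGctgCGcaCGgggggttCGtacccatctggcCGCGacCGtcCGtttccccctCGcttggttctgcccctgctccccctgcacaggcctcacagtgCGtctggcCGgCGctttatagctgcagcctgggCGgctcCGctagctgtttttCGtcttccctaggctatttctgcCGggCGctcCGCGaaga

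The same 3 genes stood above 0 on every DNMT1 array as well. VCX3A stood at 4.06 with UHRF1 shRNA, at 4.51, 4.73 and 6.56 under DNMT1 hairpin 49 and at 7.46, 8.11 and 8.74 under hairpin 51, in DLD1, HT29 and RKO. COX7B2 stood at 5.01 on the UHRF1 array, at 1.52, 3.26 and 3.14 under hairpin 49 and at 4.99, 6.02 and 5.26 under hairpin 51. UCHL1 stood at 4.70, at 0.82, 2.94 and 3.46 under hairpin 49 and at 6.67, 6.49 and 7.22 under hairpin 51. The UHRF1 array thus lay below every DNMT1 array for VCX3A and between the hairpins for UCHL1. The cancer-testis list as a whole had medians of 0.34, 1.39 and 0.88 under hairpin 49 and of 3.35, 3.59 and 4.07 under hairpin 51, and its UHRF1 median of 0.66 lay inside the range of the former and under the latter. Without shared ratios the UHRF1 median of 1.66 would lie above the former, which were not taken over the same members. CT45A1 was the member furthest below the DNMT1 range, at 0.95 here against 3.06 to 5.98.

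Of 50 genes of meiosis and the piRNA pathway with a ratio, 6 (12%) were 2-fold higher and 3 (6.0%) lower, beside 4.62% and 2.32% of all genes, and the median was 0.06. Over the 15 members with a ratio of their own the median was 0.33. SOHLH1 (2.87) and TDRD12 (1.13) among the higher had at least 1 ratio of their own, while SPO11 (2.42), the enzyme that cuts DNA in meiosis, SOHLH2 (2.12), SYCP3 (1.5) and STRA8 (1.15) rest on shared ratios. SOHLH1 was 2-fold higher on every DNMT1 array too, from 1.30 to 4.33. Of 14 testis forms of metabolic enzymes 3 (21.4%) were higher, COX7B2, the transketolase-like gene TKTL1 (1.48) and the phosphoglycerate kinase PGK2 (1.5, a shared ratio).

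Interferon-stimulated genes stood above 0 in most members, though most were within 2-fold. Of 50 with a ratio, 42 lay above 0, 33 were within 2-fold, 17 (34.0%) were at least 2-fold higher and 0 were 2-fold lower, beside 4.62% and 2.32% of all genes, with a median of 0.73 and quartiles of 0.23 and 1.10. Their highest member reached 3.20, where that of the cancer-testis list reached 5.11. Without shared ratios 15 of 36 were 2-fold higher and the median was 0.89. After IFI27 (3.20), the highest were IFI44 (2.25), the antiviral membrane proteins IFITM1 (2.24) and BST2 (1.83), and IRF9 (1.81), the DNA-binding subunit of the complex that switches these genes on. IFIT1, which binds viral RNA, stood at 1.65, IRF7 at 1.58 and MX1 at 1.17. The RNA sensors RIGI (1.09), IFIH1 (1.07) and DHX58 (1.2), themselves induced by interferon, were 2-fold higher. The lowest members were IFI16 (-0.79), CXCL11 (-0.73) and RSAD2 (-0.72), each within 2-fold and each with shared ratios.

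Most promoters of these genes carry the interferon-stimulated response element, to which the IRF9 complex binds. The letters GAAANNGAAA, sought on both strands (TTTCNNTTTC on the other), occur in 29 of the 40 interferon-stimulated genes with a RefSeq window (72.5%) and in 3.57% of all windows. The first share counts a gene when any of its windows matches, and the second counts each window singly. Below are the windows of IFI27 (chr14:94110486-94110785, plus strand, the first of 2 for this gene) and IFIT1 (chr10:89392373-89392672, plus strand), each with 2 matches in capitals.
IFI27: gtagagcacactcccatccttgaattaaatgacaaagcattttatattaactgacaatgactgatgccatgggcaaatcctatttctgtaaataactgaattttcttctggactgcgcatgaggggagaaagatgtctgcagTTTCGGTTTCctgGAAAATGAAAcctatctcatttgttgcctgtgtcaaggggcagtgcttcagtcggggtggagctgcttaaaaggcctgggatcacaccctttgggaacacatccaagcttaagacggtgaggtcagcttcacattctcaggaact
IFIT1: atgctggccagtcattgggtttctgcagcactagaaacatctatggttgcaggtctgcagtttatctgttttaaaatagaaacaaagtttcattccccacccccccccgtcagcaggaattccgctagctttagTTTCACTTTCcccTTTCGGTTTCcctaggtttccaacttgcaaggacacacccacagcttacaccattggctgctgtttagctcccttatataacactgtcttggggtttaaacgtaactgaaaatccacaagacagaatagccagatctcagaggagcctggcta

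The DNMT1 arrays differed among themselves for this group. Its medians were -0.06, -0.72 and 0.22 under hairpin 49 and 0.59, 3.12 and -0.28 under hairpin 51, in DLD1, HT29 and RKO, beside 0.73 on the UHRF1 array. IFI44, for example, stood at 2.25 here, at -1.45, -1.99 and 2.28 under hairpin 49, and at 0.12, 5.16 and -2.24 under hairpin 51. The UHRF1 value lay inside that range. BST2 was above 0 on all 7 arrays, at 1.83 here and from 0.30 to 1.93 on the others.

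Among genes upstream of the interferon response, the sensors RIGI, IFIH1 and DHX58 described above were counted as interferon-stimulated. Of 17 interferon ligands and remaining nucleic acid sensors, 0 were 2-fold higher and 1 (5.88%) was lower, beside 4.62% and 2.32% of all genes. Their median was 0.04. Of the 17, 10 have shared ratios alone, and of the 7 with a ratio of their own 0 were past 2-fold. The highest were the endosomal RNA receptors TLR3 (0.94) and TLR7 (0.84), both with shared ratios alone, and the lowest was the DNA sensor AIM2 (-1.06, a shared ratio). Of 28 antigen presentation genes, 0 were 2-fold higher, 1 (3.57%) was lower and the median was 0.09, with the immunoproteasome subunit PSMB8 highest at 0.86. Of 36 NF-kB subunits, inhibitors and targets, 3 (8.33%) were higher and 3 (8.33%) lower, beside 4.62% and 2.32% of all genes. The higher were CXCL6, PTGS2 and ICAM1, from 1.11 to 1.32, and the lower were CCL20, LTB and IER3, from -1.76 to -1.02. CXCL6, PTGS2 and CCL20 have shared ratios, and the median of the list was -0.07.

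Metallothioneins, small proteins that bind zinc and copper, stood below control in most members. Of 11 with a ratio, 7 (63.6%) were at least 2-fold lower and 0 were higher, beside 2.32% and 4.62% of all genes, and the median was -1.39. MT2A lay at -1.58, -1.62 and -1.56 on its 3 probes, or 33.2% of control. The probes of MT1X lay at -1.58 and -1.55, those of MT1H at -1.30 and -1.47 and those of MT1G at -1.14 and -1.62. MT1M (-1.82), MT1L (-1.67) and MT1B (-1.58) had 1 probe each. MT1F (-0.60) and MT1E (-0.78) were within 2-fold, as were MT3 (0.04) and MT4 (0.20), the forms of brain and stratified epithelium. The MT1 genes are near-identical neighbours on chromosome 16, so their probes are not independent views.

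The family's medians on the DNMT1 arrays were 0.02, -0.69 and -0.36 under hairpin 49 and 1.36, 1.73 and 3.05 under hairpin 51. MT2A stood at 0.09, -0.90 and 0.39 under hairpin 49 and at 1.95, 1.95 and 4.24 under hairpin 51. With the sign of the UHRF1 array turned its median would be 1.39, close to the hairpin 51 value in DLD1, so this contrast rests on the likely direction. Of 10 metallothioneins with a ratio on all 7 arrays, 9 lay below every DNMT1 array, beside 9.78% of all 15694 such genes, and with the sign turned 1 did.

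Metal switches metallothioneins on through a metal response element, whose core was sought as TGCACNC or TGCGCNC on both strands (GNGTGCA and GNGCGCA on the other). Of the 11 metallothioneins measured 5 matched a RefSeq window, and all 5 hold it, as do 29.6% of all windows. Here too genes are counted by any window and the background by single windows. The promoter of MT2A (chr16:56608334-56608633, plus strand) holds 8 matches, in capitals.
MT2A: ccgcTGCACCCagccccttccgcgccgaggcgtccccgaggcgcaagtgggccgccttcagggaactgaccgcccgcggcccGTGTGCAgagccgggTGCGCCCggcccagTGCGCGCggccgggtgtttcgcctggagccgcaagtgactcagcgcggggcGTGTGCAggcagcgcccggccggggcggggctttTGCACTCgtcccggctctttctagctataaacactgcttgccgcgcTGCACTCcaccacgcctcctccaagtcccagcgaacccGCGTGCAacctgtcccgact

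**Figure D2:**
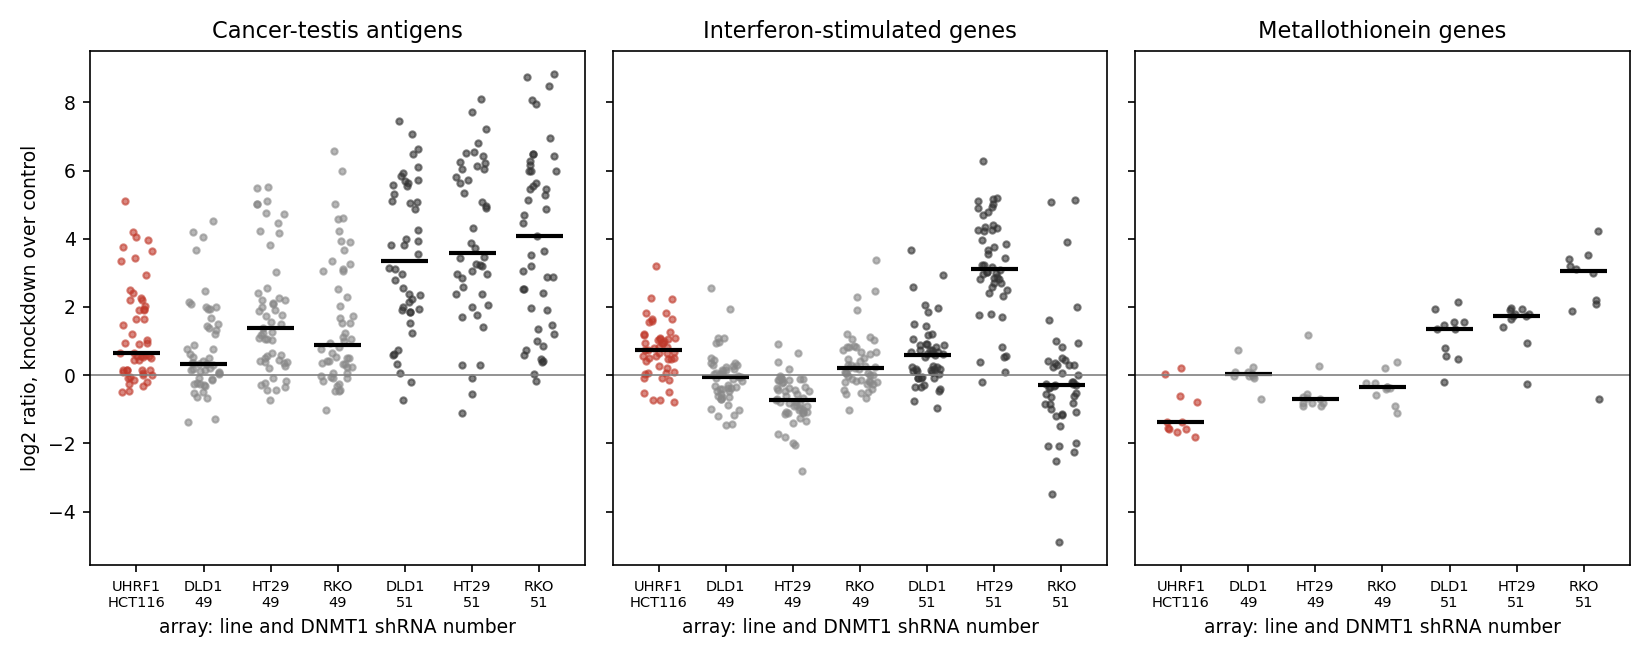
Log2 ratio of knockdown over control (y axis) for each measured member of 3 gene lists on the 7 arrays, with the UHRF1 array in red, the hairpin 49 arrays in grey and the hairpin 51 arrays in dark grey. Horizontal bars are medians: on the UHRF1 array 0.66 for cancer-testis antigens, 0.73 for interferon-stimulated genes and -1.39 for metallothioneins.

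Imprinted genes, which carry methylation on 1 parental copy, were mostly close to control, with a few high members. Of 33 with a ratio, 6 (18.2%) were 2-fold higher and 1 (3.03%) was lower, beside 4.62% and 2.32% of all genes, and the median was 0.10. H19, a noncoding RNA transcribed from the maternal copy, stood at 3.76 (13.5-fold), and its neighbour IGF2, the growth factor transcribed from the paternal copy, at 1.14. NDN (3.28) and SNURF (1.76) of the Prader-Willi region rest on shared ratios. DIRAS3 stood at 2.14 and the Notch ligand DLK1 at 2.09. DIO3, close to DLK1 on chromosome 14, went the other way at -1.59. On the DNMT1 arrays H19 lay at 3.39, 1.2 and 1.16 under hairpin 49 and at 4.15, 3.12 and -0.83 under hairpin 51, and DLK1 from -1.0 to 0.07.

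Genes often hypermethylated in colorectal cancer had a median near 0 and a few very high members. Of 75 with a ratio, 7 (9.33%) were 2-fold higher and 2 (2.67%) lower, beside 4.62% and 2.32% of all genes, and the median was 0.09. Shared ratios alone stand behind 40 of the 75. Over the 35 with a ratio of their own 6 were higher and 1 lower, and the median was 0.03. SPARC (4.93), UCHL1 (4.70) and VIM (2.94) stood far above the rest. SOX17, an endoderm transcription factor that restrains Wnt signalling, followed at 1.59 and the Wnt antagonist SFRP1 at 1.16, a shared ratio, while the growth factor receptor RET stood at -1.26. The SOX17 probes lay apart, at 3.34 and -0.15, so its call rests on 1 of them. SPARC varied on the DNMT1 arrays, from -0.80 to 6.30.

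SPARC and VIM also lead the mesenchymal and matrix genes. Of 40 with a ratio, 6 (15%) were 2-fold higher and 0 lower, beside 4.62% and 2.32% of all genes, and the median was 0.03. The others were LUM (2.18), a matrix proteoglycan, the basement membrane collagen COL4A2 (1.35), and TGFBI (1.32) and MMP14 (1.10) with shared ratios. Of 17 markers of fibroblasts and endothelium, 5 (29.4%) were higher (LUM, TIE1, EMCN, PDGFRA and PDGFRB, from 1.0 to 2.18), 0 were lower and the median was 0.15, and 11 of the 17 have shared ratios alone. Their part in the result was not tested, and ratios give no level of these markers in either RNA. Of 18 haematopoietic markers 1 (5.56%) was higher, CD3D (1.04, a shared ratio). Of 19 neuronal and glial markers 2 (10.5%) were, the neurofilament gene NEFH (2.32) and OLIG2 (1.27, a shared ratio). Shared ratios alone stand behind 7 of the 18 and 13 of the 19.

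Epithelial genes had a median below 0, with calls in both directions. Of 28 junction and keratin genes, 9 lay above 0, 3 (10.7%) were 2-fold lower and 2 (7.14%) higher, beside 2.32% and 4.62% of all genes, and the median was -0.24. CDH1, the E-cadherin of epithelial junctions, stood at -1.39 (38.2% of control), the membrane protease ST14 at -1.23 and P-cadherin CDH3 at -1.04. The higher ones were the keratin KRT23 (1.71) and the claudin CLDN1 (1.2, 1 of its 2 ratios shared). The CLDN1 probes lay apart, at 2.80 and -0.40, the latter the shared ratio. Of 37 genes of differentiated colon 3 (8.11%) were higher and 4 (10.8%) lower, with a median of 0.08: KRT20 stood at 1.72 and carbonic anhydrase CA2 at -1.07, while the mucin MUC13 (-1.86) and the chloride exchanger SLC26A3 (-1.31) rest on shared ratios. Of 22 intestinal stem and Wnt target genes 2 (9.09%) were higher and 4 (18.2%) lower, 5 of them by shared ratios, and the exception was CCND1 (cyclin D1) at -1.08.

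**Figure D3:**
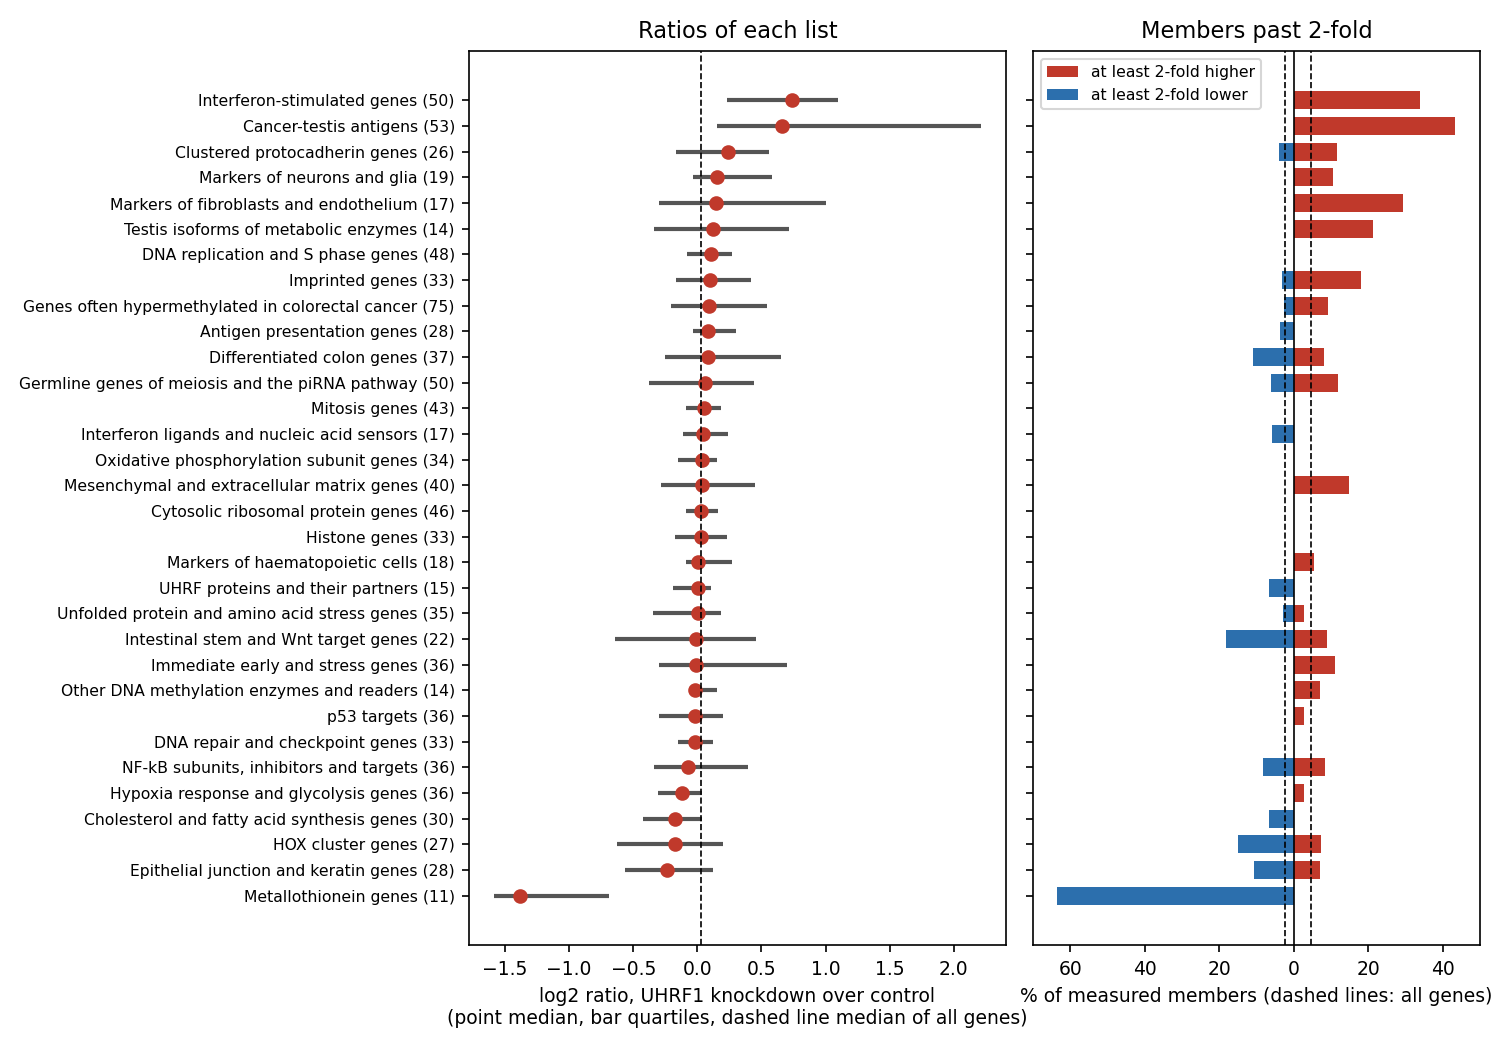
Left, median (point) and quartiles (bar) of the log2 ratio of UHRF1 knockdown over control in each gene list, with the number of measured members in brackets. Right, the percentage of members at least 2-fold higher (red) or lower (blue); dashed lines are the values over all genes, a median of 0.03 and shares of 4.62% and 2.32%, and the interferon-stimulated, cancer-testis and metallothionein lists lie furthest from them.

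Apart from MT1M, the lowest genes were a mixed set outside the families above. RAET1E-AS1, a noncoding RNA, stood lowest at -3.20. C1QTNF5, a secreted relative of complement C1q, followed at -2.65, the inflammasome regulator PYDC1 at -2.59, the heparan sulfatase SULF2 at -2.53 and the claudin CLDN6 at -2.21. GJB2, a gap junction protein, had probes at -1.77 and -1.84. Other genes with every probe 2-fold lower were the phosphatase inhibitor PPP1R1A (-1.81, 1 of its 2 ratios shared), the carbonyl reductase CBR3 (-1.69, also 1 of 2 shared), KCTD15 (-1.42) and ZNF365 (-1.40). The guidance factor SEMA3A (-1.5) and NOL4 (-1.40) have shared ratios alone.

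Some of the lowest genes had opposite signs under hairpin 49 and hairpin 51, which also differ in dye orientation. RAET1E-AS1 stood at 1.23, 1.21 and 2.04 under hairpin 49 and at -2.53, -3.21 and -4.92 under hairpin 51. C1QTNF5 stood at 2.32, 1.41 and 1.62 under hairpin 49 and at -3.59, -3.06 and -3.69 under hairpin 51. In both genes the Cy3 channel was therefore the brighter on all 7 arrays. Among the 15 lowest, 4 genes lay above 0 on all hairpin 49 arrays and below 0 on all hairpin 51 arrays (also ACTRT2 and SLC25A2), beside 2.63% of all genes, 5.42% of 240 lower genes and 2.19% of 457 higher genes with a ratio on all 7 arrays. Among genes with no shared ratio, from which the 15 were drawn, it was 9.09% of 121 lower and 0.858% of 233 higher genes. For a higher gene, the same channel is brighter on all 7 arrays with the opposite signs, below 0 under hairpin 49 and above 0 under hairpin 51. That held for 2.19% of the 457 and 1.29% of the 233 higher genes, beside 3.38% of all genes. The 4 do not include LRRC4, also among the 15, which had these signs on the 5 DNMT1 arrays with a ratio. Nor do they include TUB, whose DNMT1 values average in a probe that is blank on the UHRF1 array. Its other probe lay from 0.52 to 0.62 under hairpin 49 and from -2.88 to -2.19 under hairpin 51. Hairpin and dye cannot be told apart on the DNMT1 arrays, nor knockdown and dye on the UHRF1 array.

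Genes of growth and housekeeping stayed near control. Among 48 DNA replication genes, 43 mitosis genes, 33 histone genes, 33 DNA repair genes, 34 subunits of oxidative phosphorylation and 46 ribosomal proteins, 0 were past 2-fold in either direction, with medians from -0.02 to 0.11. The proliferation marker MKI67 stood at 0.73 and the S phase genes GINS2 and TYMS at 0.71 and 0.70. The shares that follow stand beside 4.62% higher and 2.32% lower of all genes. Of 36 p53 targets 1 (2.78%) was higher, TP53I3 (1.18), while CDKN1A, the cell cycle inhibitor p21, stood at -0.85. Of 36 immediate early and stress genes 4 (11.1%) were higher, FOS (1.02), FOSB (1.04), DUSP6 (1.05) and the quinone reductase NQO1 (1.13), and 0 were lower. Of 30 cholesterol and fatty acid synthesis genes 10 lay above 0, the median was -0.17 and 2 (6.67%) were lower, MSMO1 (-1.22) and HMGCS1 (-1.01). Of 36 genes of the hypoxia response and glycolysis, the glucose transporter SLC2A1 (1.07) was the single one past 2-fold (2.78%), and the median was -0.12. Of 35 unfolded protein and amino acid stress genes 1 (2.86%) was higher and 1 (2.86%) lower, both by shared ratios.

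Of 27 HOX genes, which pattern the body axis, 2 (7.41%) were higher and 4 (14.8%) lower, beside 4.62% and 2.32% of all genes. Over the 10 with a ratio of their own 0 were higher and 3 lower, and the median went from -0.18 to -0.43, with HOXC13 (-1.59) and HOXB9 (-1.56) lowest and HOXD10 (1.5, a shared ratio) highest. Of 26 clustered protocadherins 3 (11.5%) were higher and 1 (3.85%) lower, and 24 of the 26 have shared ratios alone. Runs of 3 adjacent measured genes past 2-fold in the same direction occurred 8 times. The share of all runs of 3 was not computed, so this number does not show that such genes lie together. On chromosome 11 the run of TNNI2, LSP1 and TNNT3, at 1.41 to 4.0, lies close to H19 and IGF2. Others were KRT12, KRT20 and KRT23 on chromosome 17, at 1.71 to 1.94, the S100 genes S100A8, S100A7A and S100A7 on chromosome 1, at 1.93 to 2.82, RHOXF2B, RHOXF1 and RHOXF2 on chromosome X, at 1.06 to 3.77, and MT1G, MT1H and MT1X on chromosome 16. KRT12, S100A8, S100A7A and RHOXF1 rest on shared ratios. By chromosome the share of 2-fold higher genes was largest on X, with 69 of 691 (9.99%), of which 22 are on the cancer-testis list. Without that list it was 47 of 641 (7.33%), beside 7.86% on chromosome 4 and 2.96% on chromosome 16, the lowest.

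The genes higher after UHRF1 knockdown were higher after DNMT1 knockdown more often than genes in general. Under hairpin 49, 8.28% of them were also 2-fold higher in DLD1, 11.9% in HT29 and 13.9% in RKO, beside 2.81%, 3.61% and 5.27% of all genes with a ratio on both arrays. Under hairpin 51 the shares were 35.3%, 37.2% and 35.4%, beside 12.8%, 11.3% and 13.1%. Taken the other way, the shared genes made up 9.92% to 15.01% of the genes higher on a DNMT1 array. The larger shares under hairpin 51 came with more genes past 2-fold on those arrays. When each hairpin 51 array was held to as many of its highest genes as the UHRF1 array has, the shares were 16.8%, 19.2% and 18.3%, where such a number of genes is 4.14%, 3.69% and 3.68% of those with a ratio on both arrays. The higher genes were also 2-fold lower on a DNMT1 array more often than genes in general, at 3.72%, 6.19% and 4.22% under hairpin 49 (beside 1.94%, 3.55% and 2.42%) and 8.24%, 9.53% and 13.8% under hairpin 51 (beside 4.29%, 4.37% and 8.46%). They thus stood past 2-fold more often in either direction. The hairpin 51 arrays have the dye orientation of the UHRF1 array, and the part of the dye was not tested. With the sign of the UHRF1 array turned, the shares also higher would be 10.1%, 6.76% and 8.59% under hairpin 49. Under hairpin 51 they would be 28.3%, 21.6% and 20.5%.

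Genes lower after UHRF1 knockdown were also lower after DNMT1 knockdown more often than genes in general. Their shares were smaller than those of the higher genes, but on each DNMT1 array fewer of all genes were 2-fold lower than higher. Under hairpin 49, 5.995%, 7.73% and 5.01% of the lower genes were also 2-fold lower in DLD1, HT29 and RKO, beside 1.94%, 3.55% and 2.42% of all genes. Under hairpin 51 the shares were 13.6%, 17.96% and 24.7%, beside 4.29%, 4.37% and 8.46%. The lower genes stood 2-fold higher more often than 2-fold lower on 4 of the 6 arrays, at 10.1% (DLD1) and 8.59% (RKO) under hairpin 49 and 28.3% (DLD1) and 21.6% (HT29) under hairpin 51, beside 2.81%, 5.27%, 12.8% and 11.3% of all genes. Across all genes Pearson r between the UHRF1 array and a DNMT1 array lay from 0.01 to 0.17 over 16776 to 18138 genes, and from 0.05 to 0.37 over genes with no shared ratio. Between DNMT1 arrays r lay from 0.05 to 0.34 over all genes, shared ratios included, where arrays of a line may share control RNA. The like range for the UHRF1 array is that from 0.01 to 0.17. Within a pair all genes come from the same 2 arrays, and the UHRF1 array shares no line with the others.

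**Figure D4:**
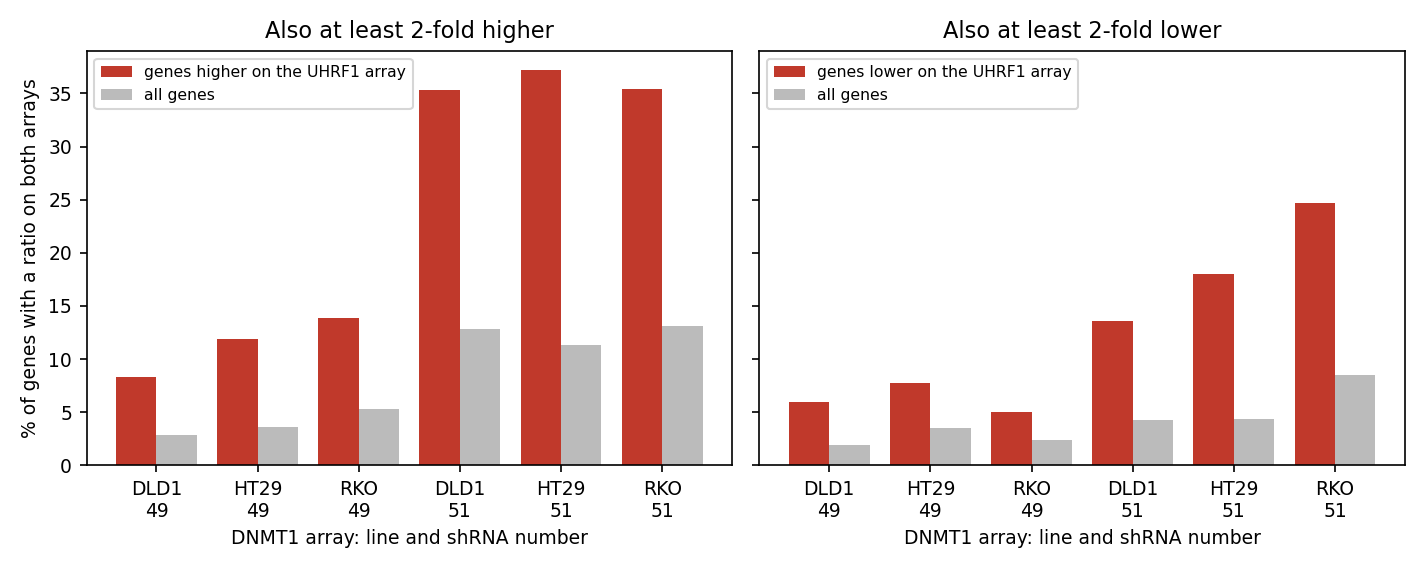
Percentage of the genes 2-fold higher (left) or lower (right) on the UHRF1 array that were past 2-fold in the same direction on each DNMT1 array (red), beside the percentage of all genes with a ratio on both arrays (grey). The x axis names the line and shRNA number; red stands above grey on every array, from 8.28% to 37.2% on the left and from 5.01% to 24.7% on the right.

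A small set was high with either target and in every line. Of 15694 genes with a ratio on all 7 arrays, 16 were 2-fold higher on all 7 (0.102%) and none was 2-fold lower on all 7. This rests on the likely direction of the UHRF1 array, since with its sign turned the 16 would be lower there. Of the 15 that are not on chromosome Y, CTAG1A, GAGE7, PAGE2, PAGE5, SPANXD, TKTL1, VCX, VCX2 and VCX3A are on the cancer-testis list. The remaining ones were COX7B2, SOHLH1, NEFH, LY6K, the sperm tail gene TEKT2 and FAM50B, an imprinted retrogene. SPANXD rests on a shared ratio. FAM50B stood at 2.44 here and from 2.28 to 5.46 on the DNMT1 arrays, TEKT2 at 2.46 and from 1.40 to 6.16, and NEFH at 2.32 and from 1.03 to 4.82. Of 457 genes higher on the UHRF1 array with all 7 ratios, 155 (33.9%) were 2-fold higher on none of the DNMT1 arrays, where 71.8% of all genes were on none.

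Several genes stood outside the whole DNMT1 range. The UHRF1 array lay above all 6 DNMT1 arrays for 9.53% of genes and below all 6 for 9.78%. GALNT15, at 6.69, lay between -0.67 and 0.54 on 5 DNMT1 arrays and reached 3.81 in RKO under hairpin 51. TIMP4, an inhibitor of matrix proteases, stood at 4.53 here, a shared ratio, and from -1.2 to 1.66 there, and AFAP1-AS1 at 3.61 and from -1.13 to 0.81. DNER, a Notch ligand of neurons, and CNTN3, a contactin, both stood at 3.21, the same shared ratio, and at most at 0.12 and 0.29 there. The CNTN3 values there also average probes that are blank on the UHRF1 array. Its probe with a UHRF1 ratio reached 0.43 there and was blank under hairpin 51 in DLD1 and HT29. Of these genes, AFAP1-AS1, DNER and CNTN3 were 2-fold higher on the UHRF1 array alone, which is also the single array of HCT116, so line and target cannot be told apart. On the other side, KRT7, a keratin of simple epithelia, stood at -0.07 here, a shared ratio, and from 2.27 to 6.30 on the DNMT1 arrays, and FSTL1, a secreted glycoprotein, at -0.04 and from 2.26 to 7.57. Both were high with DNMT1 shRNA in all 3 lines and near 0 on the UHRF1 array. CLDN6 stood at -2.21 here and from -0.07 to 5.74 there.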

How the data were processed

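RNA of 7 samples was read on 2-colour arrays. The deposited table holds a log ratio for each probe on each array, and its range fits log2, the scale used here. Limma is named by the submitters' processing notes without a version. How background and dyes were corrected, and to what base, is not stated there, and the direction was read as the report describes. Spot signals were not analysed here, which leaves dim probes in, and the number of arrays limits the precision.

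The platform annotation gave 1 gene symbol for 29341 of 41000 probes, several for 33 and none for 11626. For 99.9% of the named probes the Entrez identifier led to a RefSeq gene (GRCh38.p14), the source of names, chromosomes, neighbours and promoter windows. The UHRF1 array had a ratio for 39271 probes, 28319 of them with 1 symbol. Ratios of 1 gene were averaged, and a gene counts as higher or lower at a log2 ratio of at least 1 or at most -1. No fit and no test was made, since the comparison has 1 array. Averaging and counting were tested on simulated ratios. RefSeq windows were found for 78.5% of measured genes, under the 80% needed, so gene sets were not compared for CpG content.

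Genes named are UHRF1 and the other methylation genes, the 15 highest and 15 lowest without shared ratios, the 12 highest and 12 lowest with every probe past 2-fold, the 4 largest of each list, the 10 largest gaps to either side of the DNMT1 range, and those past 2-fold on all 7 arrays. Further members of a list past 2-fold, a few list members within 2-fold, and runs of neighbours were named after their values were seen. The array, the lists and the rules were chosen with earlier results of these data known. Python 3.11.15, pandas 2.3.3 and numpy 2.4.6 were used.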

Additional observations from a re-analysis of the deposited data

How the results depend on the processing

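The number of genes 2-fold higher (839) and lower (422) depended on several choices. It was 388 and 196 without shared ratios, 177 and 70 among genes with at least 2 probes, 1365 and 753 after quantile normalization over the 7 arrays, 2028 and 1267 at 1.5-fold, and 326 and 105 at 3-fold. Medians over probes gave 836 and 423, though they cannot change a gene with 1 or 2 probes, and centring on the gene median gave 796 and 456. Requiring every probe to pass gave 719 and 376, but a gene with 1 probe meets this rule by itself. Among genes with at least 2 probes, 57 of the 177 higher and 24 of the 70 lower genes met it. The median of 23 of 32 lists moved by less than 0.1 under all 4 alternatives. Without shared ratios it was 1.66 for cancer-testis antigens, 0.33 for germline genes, -0.0357 for testis isoforms, 0.89 for interferon-stimulated genes, -1.57 for metallothioneins, -0.43 for HOX genes, 0.57 for protocadherins and 0.32 for fibroblast and endothelial markers. After quantile normalization it was 0.88 for cancer-testis antigens, 0.97 for interferon-stimulated genes, -1.73 for metallothioneins and -0.35 for epithelial genes. With the sign of the UHRF1 array turned, an alternative chosen after seeing the data, the medians were -0.66 for cancer-testis antigens, -0.73 for interferon-stimulated genes and 1.39 for metallothioneins. Of 131 named genes past 2-fold, 86 stayed past it without shared ratios and 44 had no ratio left. No named gene past 2-fold changed sign. Quantile normalization moved 67 of 206 named genes by more than 0.461, the pooled probe SD.

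With as many genes taken per array, the share of higher genes also higher was 11.8% for shRNA 49 in DLD1 and 16.8%, 19.2% and 18.3% for shRNA 51 in DLD1, HT29 and RKO, and the share of lower genes also lower was 8.17%, 11.98% and 9.94% for shRNA 51. Without shared ratios r was 0.15 (HT29) and 0.17 (RKO) for shRNA 49 and 0.21, 0.32 and 0.23 for shRNA 51. Spearman's rho was -0.0533 for shRNA 49 in DLD1 and 0.0860 for shRNA 51 in RKO. Without the genes past 2-fold r was 0.0619, 0.0833 and 0.0737 for shRNA 51. Leaving out each DNMT1 array in turn gave 1659 to 2067 genes above and 1790 to 1979 below the others. No paired analysis was possible because the results come from no test. With 1 array and no signals, neither noise between cultures nor dim probes could be judged.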
